A study of Arabidopsis thaliana with 20 samples.

Results

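The data describe how the messenger RNA bound to ribosomes in pWOL root tips of Arabidopsis thaliana differed after 2 h of oxygen deprivation. They come from 4 arrays of the 20 in the series, 2 of hypoxia and 2 of control, chosen by their labelled line and treatment alone. All 4 come from 1 genotype, pWOL:His6FLAG-RPL18B in Col-0, in which the WOL promoter drives a His6- and FLAG-tagged ribosomal protein, RPL18B. The hypoxia seedlings, 7 days old, sat for 2 h in sealed chambers flushed with argon, from the end of the light period and in dim light. Control seedlings of the same age had the same light and temperature in air. The outermost 1 cm of the root was then cut, ribosomes were captured on anti-FLAG beads, and their RNA was amplified in 2 rounds and hybridised to a gene expression array. The pSHR, pSCR and p35S lines, which carry the same tagged protein behind those promoters and have 4 arrays each, serve for comparison. The remaining 4 arrays, of unselected RNA, entered the fit alone. No untagged plants are among the samples, so RNA that adheres to the beads without a tagged ribosome has no measured level here.

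WOL, also known as CRE1 or AHK4, is a cytokinin receptor of the root vascular cylinder, and its promoter is widely used to mark that tissue. Cells deep in the root are among the first to run short of oxygen, because oxygen reaches them only through the layers outside. When respiration stops, plant cells rely on glycolysis and fermentation for energy, translate a small set of induced messages, and let many growth-related messages leave the polysomes. A polysomal level is therefore a joint reading of how much of a message is present and how much of it is on ribosomes. In a bulk sample, fewer cells of a type and less RNA per cell cannot be told apart.

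The measured markers did not set pWOL apart as vascular. Of the 18 stele loci sought, PHV and LHW, transcriptional regulators of vascular patterning, were measured by name, and in air both were lower in pWOL than in p35S, by -0.78 ± 0.24 and -1.26 ± 0.30 (log2 difference ± SE; adjusted p = 0.049 and 0.016, limma). PHV lost its call in every alternative (adjusted p = 0.052 to 0.26), and LHW without pWOL control replicate 1 or p35S control replicate 1 (0.115 and 0.113). For all probe sets, 6.64% were higher and 5.84% lower in pWOL than in p35S in air. OPS and AT5G02460, the measured loci of 14 on the phloem list, differed by -0.28 and -0.78, and neither passed. Of 4 measured endodermal loci, the endodermal and cortical factor JKD and AT4G28100 were higher in pWOL, by 2.59 ± 0.47 and 1.09 ± 0.25 (adjusted p = 0.0037 and 0.014). JKD and AT1G09750 kept these calls without any one of the 4 arrays compared, whereas AT4G28100 lost its call without pWOL control replicate 2, p35S control replicate 1 or p35S control replicate 2 (0.137, 0.0851 and 0.0552). AT1G61590 and GSO1, the other two, stood at 0.48 and 0.42 and did not pass. Of 2 measured cortex loci AT1G62500 stood at -0.06 and did not pass, and AT1G09750 was higher by 3.39 ± 0.32 (adjusted p = 0.00023), with air means of 10.57 in pWOL, 9.48 in pSHR, 9.42 in pSCR and 7.18 in p35S (log2 signal). All 3 measured root hair loci were higher in pWOL than in p35S by 0.78 to 1.29, but none of these differences passed. WOL, SHR, SCR and the listed xylem, pericycle and root cap loci are not analysed here by name, so the population is called by its promoter, pWOL, below.

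**Figure D1:**
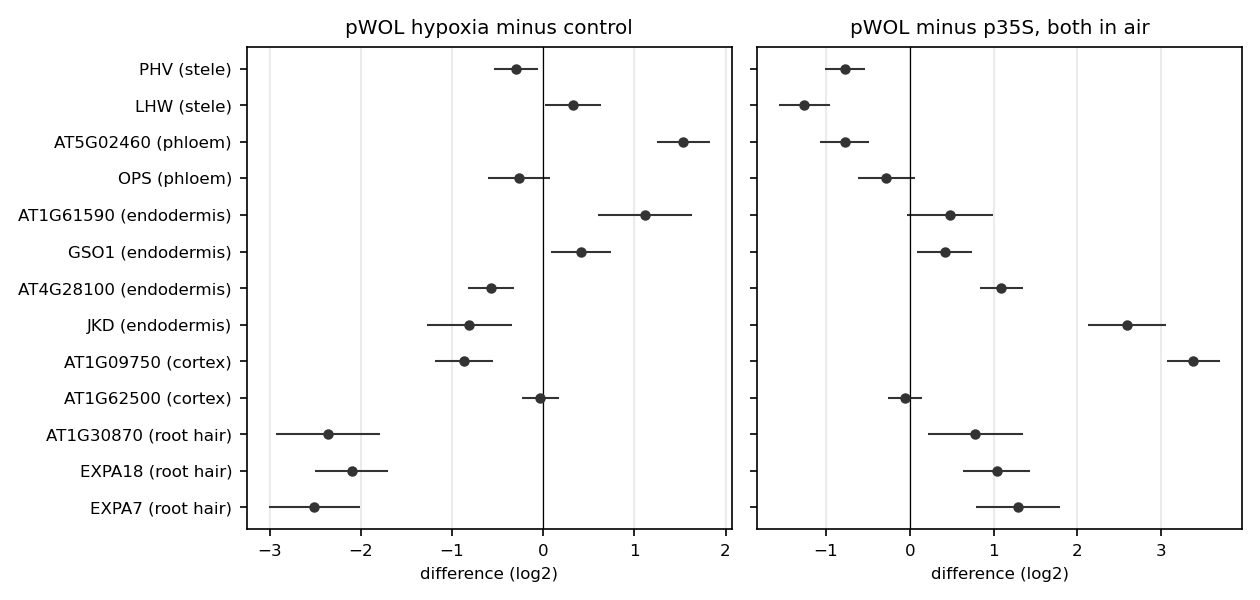
Differences (log2, horizontal axis, with bars of 1 standard error) of the 13 measured cell type markers, in pWOL hypoxia minus control at left and in pWOL minus p35S in air at right. The stele and phloem markers sit at or below 0 at right, AT1G09750 and JKD sit farthest above 0, and the 3 root hair markers sit between -2.51 and -2.10 at left.

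After 2 h of hypoxia, 950 of 22746 probe sets were higher and 987 were lower on pWOL ribosomes than in air, which is 4.18% and 4.34% of those tested (limma, adjusted p below 0.05). Rises were the larger changes: 69 probe sets rose by at least 3 log2 units (8-fold) and 10 fell by as much, and at 4 log2 units and above 28 had risen and 0 had fallen. The median called rise was 1.42 and the median called fall 1.29 log2 units. Probe sets that rose had a median signal of 9.17 in hypoxia and 7.43 in air, whereas those that fell had 6.97 in hypoxia and 8.37 in air. Across all probe sets the median difference was -0.005 log2 units. In all of the called probe sets the 2 hypoxia arrays did not overlap the 2 control arrays, which also held, with or without a call, for 26.1% of all probe sets in the upward direction and 27.0% in the downward direction. The available annotation gives 1 gene for 977 of the 1937 called probe sets, and genes are named from these alone. The count depends on having 2 arrays per group: it was 871 without control replicate 1, 841 without control replicate 2, 812 without hypoxia replicate 1 and 788 without hypoxia replicate 2.

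**Figure D2:**
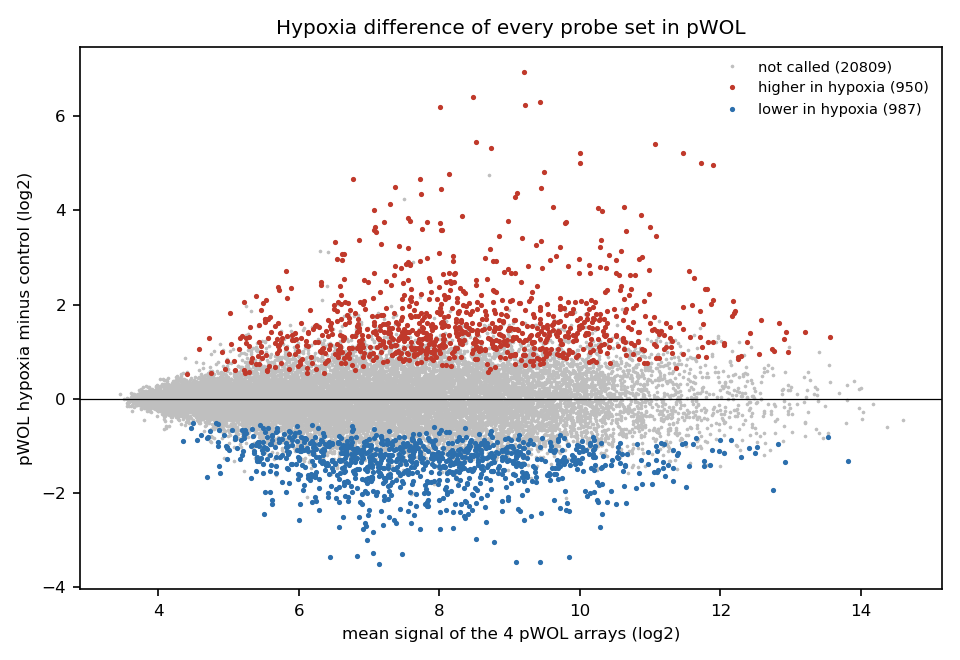
Each point is 1 probe set, placed by its mean signal over the 4 pWOL arrays (log2, horizontal) and its pWOL hypoxia minus control difference (log2, vertical). The 950 called rises reach 6.94 and the 987 called falls reach -3.52, with called probe sets at low and at high signal.

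The arrays of each pWOL group resembled each other closely, with a correlation of 0.984 between the hypoxia arrays and 0.980 between the control arrays, within the 0.965 to 0.984 of all groups. Array medians of the 20 arrays lay between 6.41 and 6.55. The 3′ minus 5′ signal of the GAPDH control, a measure of RNA integrity and of amplification from the 3′ end, was 4.39 and 4.45 in pWOL hypoxia and 4.39 and 5.07 in pWOL control. That of actin was 3.3 and 2.39 in hypoxia and 2.42 and 2.58 in control. On the other 16 arrays GAPDH ran from 3.16 to 5.11 and actin from 2.90 to 4.95. Hypoxia replicate 2 and both control arrays of pWOL thus lay below that actin range. The bioB spike control read 7.16 and 8.37 in pWOL hypoxia and 8.56 and 8.49 in pWOL control, against 7.38 to 9.30 on the other arrays. The part of these signals in the comparisons with other lines was not tested. The 25S rRNA probe set read 14.30 and 14.29 in pWOL hypoxia and 13.54 and 13.24 in pWOL control, and its part in the results was not tested. The number of arrays, 2 a group, limits the precision, and the labels do not say that they come from separate plantings, so a p-value here reflects array-to-array spread that could be technical.

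The 15 largest rises among named genes ran from 4.07 to 6.94 log2 units, with hypoxia means of 9.11 to 12.68 against control means of 4.45 to 8.59. The first was AT3G10040 (HRA1), a transcription factor that restrains the low-oxygen programme. It read 12.84 and 12.53 on the hypoxia arrays and 5.94 and 5.53 on the control arrays, a rise of 6.94 ± 0.31 log2 units or 123-fold (adjusted p = 5.0e-08, limma). Both hypoxia arrays lay more than 6 log2 units above both control arrays. AT5G10040 read 11.78 and 11.58 in hypoxia and 6.09 and 4.47 in control, so its control arrays lay further apart from each other than its hypoxia arrays. AT4G24110 and AT4G10270 rose by 6.24 ± 0.42 and 6.20 ± 0.29.

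PDC2, a pyruvate decarboxylase that commits pyruvate to ethanol, was already bright in air. It read 12.76 and 12.55 in hypoxia and 8.82 and 8.36 in control, a rise of 4.07 ± 0.31 or 16.8-fold (adjusted p = 4.4e-06). WRKY22, a transcription factor of immune signalling, read 9.97 and 10.54 in hypoxia and 5.94 and 5.65 in control, a rise of 4.46 ± 0.33 (adjusted p = 3.7e-06). AT4G30380 (EXLB2), an expansin-like gene, was near the bottom of the scale in air, at 4.46 and 4.43, and read 9.60 and 8.61 in hypoxia. Groups that do not overlap were a condition for picking these genes. Of these 3, EXLB2 had the widest gap between its hypoxia arrays. Its SE of 0.65 is estimated from the spread of all 20 arrays, not from that gap alone. The remaining 8 were AT1G33055, AT3G27220, AT3G23170, AT1G26270, AT5G26200, AT5G44730, AT5G51440 and AT1G03610, at 4.08 to 4.82, and none of the 15 lost its call in any fit that left out an array.

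**Figure D3:**
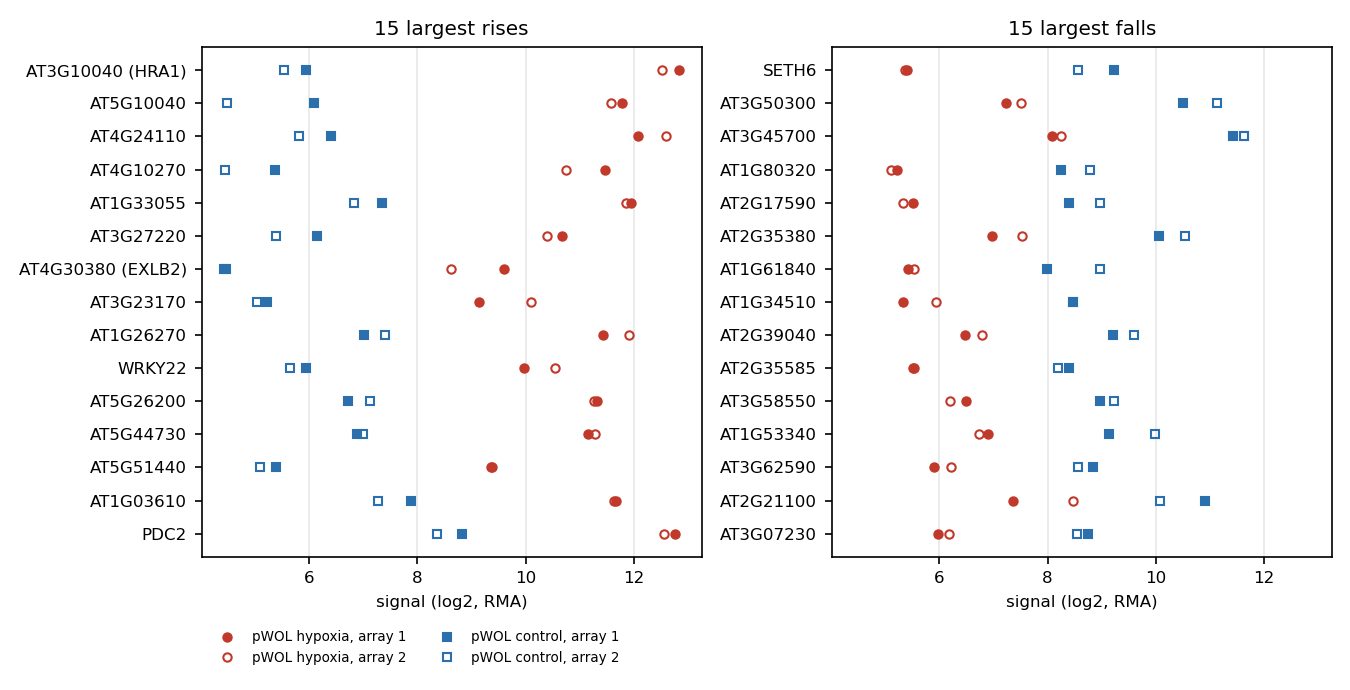
Signal on each array (log2 RMA values, horizontal axis) of the 15 named genes with the largest rises, left, and the largest falls, right, in pWOL. Red circles are hypoxia arrays and blue squares control arrays, filled for replicate 1 and open for replicate 2. The 30 genes were picked among those whose groups do not overlap.

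The 15 largest named falls were smaller, from 2.57 to 3.52 log2 units, and ended at hypoxia means of 5.16 to 8.16, against 8.29 to 11.53 in air. SETH6 read 5.39 and 5.37 in hypoxia and 9.23 and 8.56 in control, a difference of -3.52 ± 0.46 or 11.4-fold lower (adjusted p = 0.00048, limma). AT3G45700, on the list of NPF nitrate and peptide transporter loci, read 8.08 and 8.25 in hypoxia and 11.42 and 11.63 in control, a difference of -3.36 ± 0.50. AT3G50300 fell by 3.45 ± 0.26 and AT1G80320 by 3.35 ± 0.36 on the log2 scale. Among these 15, AT2G35380, AT1G34510 and AT2G39040 stand on the class III peroxidase list, at -3.05, -2.83 and -2.77. AT2G39040 lost its call without any one of the 4 pWOL arrays (adjusted p = 0.11 to 0.16). AT1G34510 lost it without control replicate 1, control replicate 2 or hypoxia replicate 1 (adjusted p = 0.056, 0.058 and 0.084), and AT2G21100 without control replicate 1 or hypoxia replicate 1 (adjusted p = 0.11 and 0.13).

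The same 30 genes were read in the other lines. The 15 rises had a median of 4.50 in pWOL, 4.42 in pSHR, 4.64 in pSCR and 4.81 in p35S, and 15, 13 and 15 of them passed in pSHR, pSCR and p35S. Of all probe sets, 2.68% rose in pSHR, 3.45% in pSCR and 2.80% in p35S. The 15 falls had a median of -2.83 in pWOL, -1.83 in pSHR, -1.65 in pSCR and -1.18 in p35S, and 9, 8 and 5 of them passed, where 1.88%, 2.51% and 1.92% of all probe sets fell. Both sets were picked for their size in pWOL, which favours pWOL in this comparison. The order of the lines was therefore not tested.

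The low-oxygen core, a list of loci known to be induced in many Arabidopsis tissues, held 56 entries, of which 30 loci were measured. Of these 30 loci 28 were called higher and 0 lower, where 4.18% of all probe sets rose. Their median was 3.38 log2 units against -0.005 for all probe sets. The list was partly chosen on these samples and is not independent evidence of its direction. CML38, a calmodulin-like calcium sensor, read 8.15 and 9.58 in hypoxia and 5.88 and 4.78 in control, a rise of 3.53 ± 0.51 (adjusted p = 0.00094, limma). TIL, a temperature-induced lipocalin, was bright throughout, at 13.05 and 13.23 in hypoxia and 11.30 and 11.27 in control, and rose by 1.86 ± 0.26. FHL, a partner of phytochrome A, rose by 2.52 ± 0.45, a call lost without hypoxia replicate 1 (adjusted p = 0.052). The members that did not pass were AT3G29970, at 1.05 ± 0.49, and AT5G45960, at 0.01 ± 0.26. The list's median was 3.58 in pSHR, 4.16 in pSCR and 4.11 in p35S.

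Fermentation and glycolysis were read from a part of their lists. The fermentation list had 3 measured loci from 15 entries. PDC2 and AT4G17260 rose, and PPDK, which interconverts pyruvate and phosphoenolpyruvate, stood at 0.68 ± 0.47 (adjusted p = 0.46, limma). AT4G17260 read 10.48 and 10.24 in hypoxia and 7.64 and 7.56 in control, a rise of 2.76 ± 0.23 (adjusted p = 9.5e-06, limma). Of the 10 measured sugar breakdown loci, AT1G76550 alone was called, at 1.45 ± 0.28 (adjusted p = 0.0066), and without control replicate 2 none was (adjusted p = 0.075). The sugar breakdown list had 32 entries, and of the 10 measured loci 9 stood above 0 and 1 below. Its median was 0.82 in pWOL, against -0.10 in pSHR, -0.06 in pSCR and -0.13 in p35S, where 0 of the 10 passed in each. The tests of the difference from the pSHR and p35S responses called 0 of the 10. GAPC2, cytosolic glyceraldehyde-3-phosphate dehydrogenase, stood at 0.66 ± 0.26, ENOC, an enolase, at 0.37 ± 0.34, and TPI, triose phosphate isomerase, at 0.23 ± 0.24. In air 5 of the 10 were lower in pWOL than in p35S, where 5.84% of all probe sets were. This comparison shares the pWOL control arrays.

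Of 17 measured chaperone loci 11 were called higher and 0 lower, where 4.18% of all probe sets rose and 4.34% fell. The list's median was 1.12, against medians of 0.34 in pSHR, 0.65 in pSCR and -0.14 in p35S. Most of the 11 were subunits of the cytosolic chaperonin, the barrel that folds actin and tubulin. On that list, read after earlier results of these data were known, 7 of the 8 measured loci rose, by 0.98 to 2.08. These 7 calls became 6 without control replicate 1, 2 without control replicate 2, 2 without hypoxia replicate 1 and 4 without hypoxia replicate 2. AT3G03960 lost its call in all 4 of these fits, and AT1G24510 and AT3G02530 in 3. AT3G11830 of that list read 11.22 and 10.89 in hypoxia and 9.29 and 8.65 in control, a rise of 2.08 ± 0.34 (adjusted p = 0.0022, limma). ATERDJ3B, a J-domain protein that assists folding in the endoplasmic reticulum, read 10.60 and 10.96 in hypoxia and 9.34 and 9.45 in control, a rise of 1.39 ± 0.23. AT5G48570 (FKBP65), a peptidyl-prolyl isomerase, rose by 2.97 ± 0.64, and the plastid chaperonins Cpn60beta2 and Cpn60beta3 by 1.06 ± 0.29 and 0.88 ± 0.25. The hsp70 Hsp70-2 stood at -0.07 ± 0.27 and the calreticulin CRT1b at 1.11 ± 0.33 (adjusted p = 0.057), and neither passed.

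The chaperone calls depend on the arrays. AT5G48570 lost its call without control replicate 2, hypoxia replicate 1 or hypoxia replicate 2 (adjusted p up to 0.095), and Cpn60beta2 and Cpn60beta3 without each array (up to 0.24 and 0.23). The calls numbered 8 without control replicate 1, 3 without control replicate 2, 3 without hypoxia replicate 1 and 5 without hypoxia replicate 2, while the median stayed between 1.00 and 1.33 in all alternatives. In air 13 of the 17 were lower in pWOL than in p35S, where 5.84% of all probe sets were. The median of the 17 was -1.22, in a comparison that shares the pWOL control arrays. For 2 of the 17, AT3G18190 and ATERDJ3B, the pWOL response differed from the p35S response by the test of the difference (2.37 ± 0.40 and 1.85 ± 0.33; adjusted p = 0.046 and 0.0499). Both of these calls were lost with the replicate block, from the compared arrays alone, and without any one of the p35S and pWOL arrays except p35S hypoxia replicate 1 (adjusted p up to 0.18 and 0.15). Among small heat shock loci 4 of 9 rose, where 4.18% of all probe sets rose. Their list's median was 0.82, against 3.07 in pSHR, 0.84 in pSCR and 1.96 in p35S. These 4 calls became 2 without control replicate 2 or hypoxia replicate 1 and 3 without hypoxia replicate 2, and the median became 0.48 without control replicate 2. AT5G51440 read 9.38 and 9.36 in hypoxia and 5.38 and 5.08 in control, a rise of 4.14 ± 0.56. ATHSP22.0 rose by 0.67 ± 0.17, a call lost in 3 of the 4 fits that left out an array (adjusted p up to 0.22), and AT5G37670, at 0.82 ± 0.38, did not pass.

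**Figure D4:**
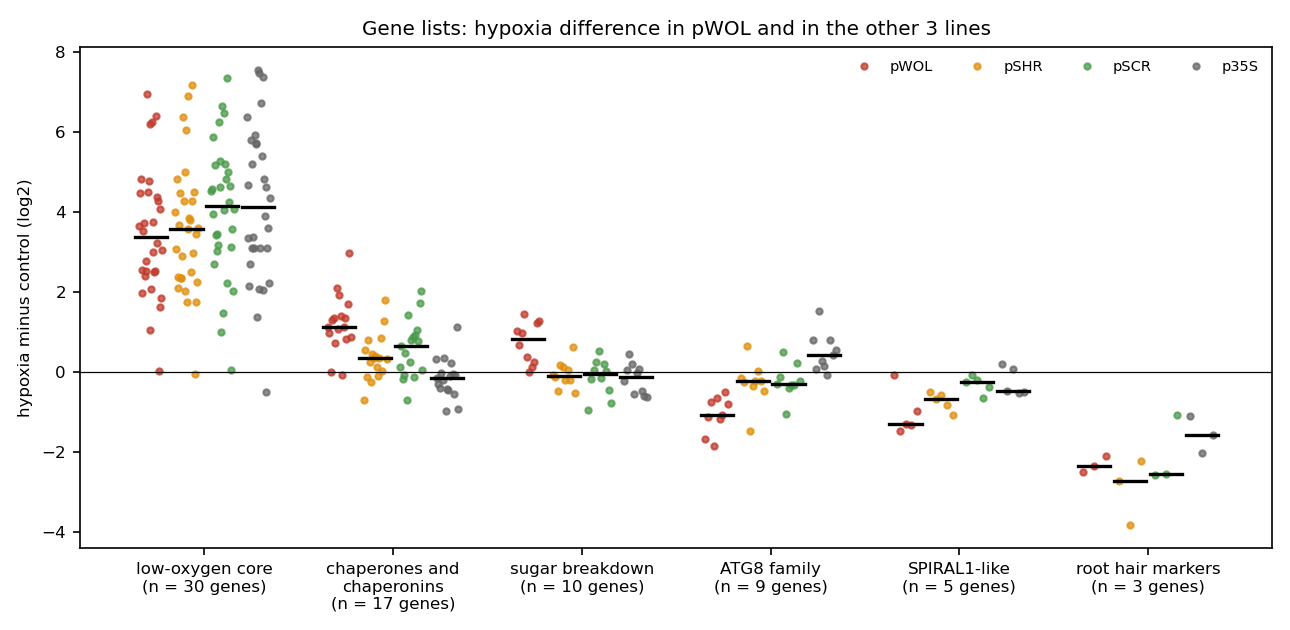
Hypoxia minus control difference (log2, vertical axis) of each measured gene in 6 lists, in pWOL and in pSHR, pSCR and p35S; black bars are list medians. In the low-oxygen core the medians run from 3.38 in pWOL to 4.16 in pSCR, in the chaperone list pWOL is at 1.12, and in the ATG8 family pWOL is at -1.08.

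Of the hormone loci listed, 4 were measured for auxin, 2 for ethylene and 2 for cytokinin, and 1 was called in each list. GH3.3, which conjugates auxin to amino acids, read 8.62 and 9.01 in hypoxia and 5.77 and 5.31 in control, a rise of 3.28 ± 0.34 (adjusted p = 7.5e-05, limma). Its relative WES1 (GH3.5) stood at 0.64 ± 0.33 and the auxin response repressors IAA20 and IAA31 at -0.10 and -0.39, and none of these passed. RTE1, which promotes signalling by the ethylene receptor ETR1, read 8.41 and 8.13 in hypoxia and 9.41 and 9.59 in control, a difference of -1.23 ± 0.18 (adjusted p = 0.0011). EIN3, the ethylene transcription factor, stood at 0.80 ± 0.26 (adjusted p = 0.081). RR16, a type-A cytokinin response regulator, fell by 1.04 ± 0.29 on the log2 scale, and ARR15 stood at 0.15 ± 0.19. GH3.3 and RTE1 kept their calls without any one pWOL array, and RR16 lost its call without each of them (adjusted p = 0.12 to 0.21).

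STZ, a zinc finger repressor of stress genes, rose by 1.59 ± 0.30, a call lost without hypoxia replicate 2 (adjusted p = 0.057). GAT1_2.1, a glutamine amidotransferase, read 11.58 and 12.12 in hypoxia and 9.01 and 9.35 in control, a rise of 2.67 ± 0.30. In the WRKY family WRKY22 was the 1 call among 7 measured members, with WRKY6 at 1.07 ± 0.48 and WRKY53 at 0.49 ± 0.39. Among 8 calcium sensor entries CML38 was the 1 call, and the others stood between -0.34 and 0.44.

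Several other families were read after earlier results of these data were known, so their counts are descriptive. They are the chaperonin list above and the U-box, UDP-glycosyltransferase, aldehyde dehydrogenase, ATG8, SPIRAL1-like, methionine sulfoxide reductase and glutathione transferase lists. The alpha-expansin, class III peroxidase, NPF, TBL, cytochrome P450 and tetraspanin lists were read in the same way. Plant U-box ubiquitin ligases gave 3 rises among 9 measured, where 4.18% of all probe sets rose. The 3 were PUB19, PUB22 and PUB23, which restrain immune and drought responses. PUB19 read 9.65 and 9.66 in hypoxia and 6.16 and 7.28 in control, a rise of 2.93 ± 0.42 (adjusted p = 0.00088, limma), and PUB23 and PUB22 rose by 2.04 ± 0.31 and 1.54 ± 0.24. All 3 kept their calls without any one pWOL array. Among UDP-glycosyltransferases, which attach sugars to small molecules, 4 of 51 rose and 1 fell, where 4.18% of all probe sets rose and 4.34% fell. UGT73B1 and UGT73B4 rose by 1.92 ± 0.42 and 1.76 ± 0.28, and UGT76C2, which glucosylates cytokinins, fell by 1.23 ± 0.24 on the log2 scale. UGT73B4 kept its call without any one pWOL array, whereas UGT73B1 and UGT76C2 lost it in 3 and 2 of these 4 fits (adjusted p up to 0.14 and 0.080). The other two rises, UGT73B5 and UGT71C2, lost their calls in 4 and 3 of these fits (up to 0.13 and 0.28), so that 1 or 2 rises were left in each. Aldehyde dehydrogenases, which oxidise reactive aldehydes, gave 3 rises among 8, where 4.18% of all probe sets rose. ALDH7B4 read 13.08 and 13.01 in hypoxia and 11.40 and 11.16 in control, a rise of 1.77 ± 0.21 (adjusted p = 0.00021), which held without any one pWOL array. ALDH6B2 lost its call without each array and ALDH10A9 in 3 of the 4 fits (up to 0.095 and 0.15), so the 3 rises became 2 without hypoxia replicate 1 and 1 in the other fits.

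The 9 measured ATG8 genes, which encode the ubiquitin-like protein that decorates autophagic membranes, all stood below 0 in pWOL, from -0.51 to -1.86 with a median of -1.08. ATG8C, ATG8D, ATG8G and ATG8H were called lower, where 4.34% of all probe sets were. ATG8C read 6.24 and 6.06 in hypoxia and 8.34 and 7.32 in control, a difference of -1.68 ± 0.44 (adjusted p = 0.032, limma). ATG8H read 6.24 and 6.44 in hypoxia and 8.32 and 8.09 in control, a difference of -1.86 ± 0.54 (adjusted p = 0.050, which rounds up from just below the threshold). The family median was -0.24 in pSHR, -0.31 in pSCR and 0.43 in p35S, with 0 called in each. The tests of the difference from the pSHR and p35S responses called 0 of the 9. ATG8H lost its call with the replicate block and with median centring (limma, adjusted p = 0.058 and 0.052). ATG8D lost its call from the compared arrays alone and with median centring (0.057 and 0.052). The 4 calls became 1 without control replicate 2 and 0 without control replicate 1, hypoxia replicate 1 or hypoxia replicate 2.

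SPR1, SP1L3 and SP1L5 fell, 3 of 5 measured SPIRAL1-like genes, which guide cortical microtubules and straight growth, where 4.34% of all probe sets fell. SPR1 was bright, at 10.38 and 10.51 in hypoxia and 11.76 and 12.09 in control, a difference of -1.48 ± 0.23 (adjusted p = 0.0014, limma). The list's median was -1.29 in pWOL, against -0.67 in pSHR, -0.26 in pSCR and -0.47 in p35S. The tests of the difference from the pSHR and p35S responses called 0 of the 5. MSRB5 and MSRB3, methionine sulfoxide reductases that repair oxidised methionine, fell by 1.81 ± 0.24 and 1.08 ± 0.29 on the log2 scale, and MSRB6 and MSRB9 stood at -0.17 and 0.16. Among 14 glutathione transferases, which conjugate glutathione to reactive compounds, GSTU18, GSTU20, GSTU23 and GSTF4 fell and 0 rose. Of all probe sets, 4.34% fell and 4.18% rose. GSTU23 read 7.41 and 7.61 in hypoxia and 8.81 and 9.30 in control, a difference of -1.54 ± 0.26 (adjusted p = 0.0029). SPR1, SP1L5, MSRB5, GSTU23 and GSTF4 kept their calls without any one pWOL array. MSRB3 and GSTU20 lost theirs without each of the 4 (adjusted p = 0.11 to 0.17 and 0.15 to 0.21), and SP1L3 and GSTU18 in 3 of the 4 fits (up to 0.090 and 0.11).

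Of 29 measured xyloglucan and expansin loci, which remodel and loosen the wall, 5 fell, 1 rose and 23 were not called, with a median of -0.17, where 4.34% of all probe sets fell. The 5 falls became 2 without control replicate 1, control replicate 2 or hypoxia replicate 1, and 3 without hypoxia replicate 2. The falls were EXPA4, EXPA7, EXPA15 and EXPA18, of 10 alpha-expansins, and XTH16, and the rise was EXLA3. EXPA7 read 6.11 and 5.08 in hypoxia and 7.92 and 8.29 in control, a difference of -2.51 ± 0.50 (adjusted p = 0.0080, limma). EXPA4 read 6.56 and 6.89 in hypoxia and 8.99 and 8.86 in control, a difference of -2.19 ± 0.33 (adjusted p = 0.0014). EXPA15, at -0.87 ± 0.24, lost its call with arrays centred on their medians (adjusted p = 0.050), with quantile normalization (0.056) and with trended robust moderation (0.075), and without any one pWOL array (0.11 to 0.18). XTH16, a xyloglucan endotransglucosylase, fell by 1.46 ± 0.30 on the log2 scale, whereas EXLA3, an expansin-like gene, rose by 2.45 ± 0.49. EXPA4 kept its call without any one pWOL array. EXPA7 and EXLA3 lost theirs without control replicate 2 or hypoxia replicate 2 (adjusted p up to 0.094 and 0.082), EXPA18 without control replicate 1 or hypoxia replicate 1 (up to 0.070), and XTH16 in all of these fits except that without hypoxia replicate 2 (up to 0.072).

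EXPA7, EXPA18 and AT1G30870 are also the 3 measured root hair markers, so every measured one fell, by 2.10 to 2.51 on the log2 scale. AT1G30870 read 8.73 and 8.51 in hypoxia and 11.07 and 10.89 in control, so each hypoxia array lay more than 2 log2 units below each control array. The mean level of the 3 was 7.22 and 6.93 in hypoxia and 9.49 and 9.30 in control. AT1G30870 lost its call without each of the pWOL arrays (adjusted p = 0.087 to 0.12). The median of the 3 was -2.36 in pWOL, -2.74 in pSHR, -2.54 in pSCR and -1.57 in p35S. The part of root hair messages in the falls of the other wall loci was not tested. No stele, endodermis or cortex marker was called in hypoxia, and AT5G02460 of the phloem list rose by 1.54 ± 0.29 (adjusted p = 0.0058; 0.052 without hypoxia replicate 1).

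Class III peroxidases, wall enzymes that make and use hydrogen peroxide, had 7 falls and 3 rises among 55 measured loci, with a median of -0.06, where 4.34% of all probe sets fell and 4.18% rose. On leaving out each pWOL array the 7 falls became 2 or 3 and the 3 rises 1 or 2. AT2G35380 read 6.97 and 7.53 in hypoxia and 10.05 and 10.54 in control. Prx37 read 7.75 and 8.04 in hypoxia and 5.89 and 6.09 in control, a rise of 1.91 ± 0.43 (adjusted p = 0.016, limma), and AT5G39580 rose by 2.48 ± 0.26. AT2G35380 and AT5G39580 kept their calls without any one pWOL array, and Prx37 lost its call without each (adjusted p = 0.062 to 0.11). Of 34 NPF transporter loci 5 fell and 1 rose, with a median of -0.30. Besides AT3G45700 these were AT1G72140 (-2.08 ± 0.36), AT2G40460 (-1.97 ± 0.30), AT3G45680 (-1.57 ± 0.40) and AT3G45710 (-1.55 ± 0.42), and AT5G46040 rose by 1.24 ± 0.31. AT3G45680 and AT3G45710 lost their calls without each pWOL array (adjusted p = 0.090 to 0.14 and 0.091 to 0.22), and AT5G46040 in 3 of these 4 fits (up to 0.22). AT3G45680, AT3G45700 and AT3G45710 have neighbouring locus numbers, and array probes cannot always tell near-identical copies apart.

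Other wall-related and metabolic genes moved in small numbers. HCT, an enzyme of lignin precursor synthesis, read 11.03 and 11.21 in hypoxia and 12.01 and 12.16 in control, a difference of -0.96 ± 0.25 (adjusted p = 0.032, limma). TBL30 and TBL36, of a family that acetylates wall polymers, fell by 1.44 ± 0.29 and 1.47 ± 0.29 on the log2 scale. They were 2 of 23 measured members, where 4.34% of all probe sets fell. Among 28 cytochrome P450 genes CYP71B37, CYP84A4, CYP71B28 and CYP718 fell, by 1.34 to 1.77, and 0 rose. Of all probe sets, 4.34% fell and 4.18% rose. Among 15 measured tetraspanins, small membrane proteins, 12 were not called: TET12 and TET6 fell by 1.38 ± 0.17 and 1.36 ± 0.30, and TET2 rose by 1.35 ± 0.34, with a list median of -0.01. HCT, CYP718, TET6 and TET2 lost their calls without each pWOL array (adjusted p up to 0.18, 0.16, 0.091 and 0.17), TBL30 and TBL36 without control replicate 2 or hypoxia replicate 1 (up to 0.082 and 0.075), CYP71B37 without control replicate 1 or hypoxia replicate 2 (up to 0.062) and CYP84A4 without control replicate 2 (0.058). Of 5 measured cell division genes none was called, with AUR2, an Aurora kinase, at -1.0 ± 0.36 and PRL (MCM7), a replication helicase subunit, at 0.50 ± 0.44 (limma; 1 of the 5 had an unadjusted p below 0.05).

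The labels place pSHR, like pWOL, in the vascular tissue, and the 2 lines share no arrays. Of the 950 pWOL rises 394 were also called higher in pSHR, which is 41.5% of the pWOL rises and 64.7% of the 609 pSHR rises. Of the 987 falls 235 were shared, which is 23.8% of the pWOL falls and 54.9% of the 428 pSHR falls. Of all probe sets, 2.68% rose and 1.88% fell in pSHR. Calls in opposite directions numbered 0 among the rises and 2 among the falls. The pWOL rises had a median of 1.42 in pWOL and 0.91 in pSHR, and the falls -1.29 in pWOL and -0.68 in pSHR, in a set chosen by its pWOL values. Over the 22746 probe sets the 2 responses correlated at 0.65 (Pearson), a description over genes measured on the same array design. The pSCR line shared more of the pWOL calls than pSHR did, with 417 of the rises (43.9%) and 248 of the falls (25.1%). It also had more calls of its own, 784 rises (3.45% of all probe sets) and 572 falls (2.51%). The shared calls were 53.2% of the pSCR rises and 43.4% of its falls, smaller shares than in pSHR. In p35S, 360 of the pWOL rises (37.9%) and 157 of the falls (15.9%) were shared. These were 56.4% of the 638 p35S rises and 36.0% of the 436 p35S falls. The responses of pSCR and p35S correlated with that of pWOL at 0.60 and 0.50.

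The test of the pWOL response minus the pSHR response called 0 of 22746 probe sets (0.0%; limma, smallest adjusted p = 0.29), with 1677 at an unadjusted p below 0.05. Leaving out pSHR hypoxia replicate 1 gave 54 calls, and leaving out pSHR control replicate 2 gave 2. The pWOL response minus the mean response of pSHR, pSCR and p35S also called 0 (0.0%; smallest adjusted p = 0.13), with 2448 at an unadjusted p below 0.05. It called 20 when pSHR control replicate 2 was left out, 18 when pSHR hypoxia replicate 1 was, 2 without pWOL control replicate 1 and 1 without pWOL hypoxia replicate 1. Against p35S alone the response differed for 36 probe sets, 15 more positive (0.0659%) and 21 more negative (0.0923%) in pWOL, a comparison added after the data were seen. With the replicate block, or with no arrays but those compared, 0 were called. The count became 156 without p35S hypoxia replicate 1 and 0 to 7 without any other of the arrays compared. A p that misses the threshold does not show that responses were equal: 394 of the 950 pWOL rises and 570 of the 987 falls were called in none of the other 3 lines, and these were not shown to differ from them.

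SETH6 had the largest fall of the named genes in pWOL, and its difference was -3.52 in pWOL, -1.58 in pSHR, -0.96 in pSCR and 0.64 in p35S. Its mean was 5.38 in pWOL hypoxia and 8.90 in pWOL air. AT2G17850 of the low-oxygen core rose by 2.40 ± 0.34 in pWOL, against 2.34 in pSHR, 3.02 in pSCR and 5.21 in p35S. The differences from p35S of both genes passed the test (adjusted p = 0.041 and 0.046), but neither passed with the replicate block, from the compared arrays alone or without any one array other than p35S hypoxia replicate 1 (up to 0.15).

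Called rises were longer genes than called falls. Gene length here is the span in the RefSeq annotation (TAIR10.1), introns included, known for 13436 of the 13513 probe sets with 1 gene. The median was 2666 bp for 449 rises, 1962 bp for 528 falls and 2117 bp for all. Among the longest genes, from 3348 bp, 5.32% rose and 1.79% fell, whereas among those of 1240 to 1843 bp 2.31% rose and 5.74% fell. Among the shortest, up to 1239 bp, 1.90% rose and 2.82% fell.

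The rank correlation of gene length with the hypoxia difference was 0.15 in pWOL, 0.19 in pSHR, -0.04 in pSCR and -0.10 in p35S, over the same 13436 probe sets. Rises were also the longer in pSHR, with medians of 2454 bp for rises and 1866 bp for falls. The order was the reverse in pSCR, with 2173 bp for rises and 2446 bp for falls, and in p35S, with 1702 bp for rises and 2402 bp for falls. The 3′ minus 5′ signal of ubiquitin, a control for amplification along the message, was 3.44 and 3.53 in pWOL hypoxia and 3.02 and 3.13 in pWOL control, so the groups did not overlap. The GAPDH and actin signals of the same kind, given above, overlapped between hypoxia and control. The part of these signals in the relation with gene length was not tested.

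**Figure D5:**
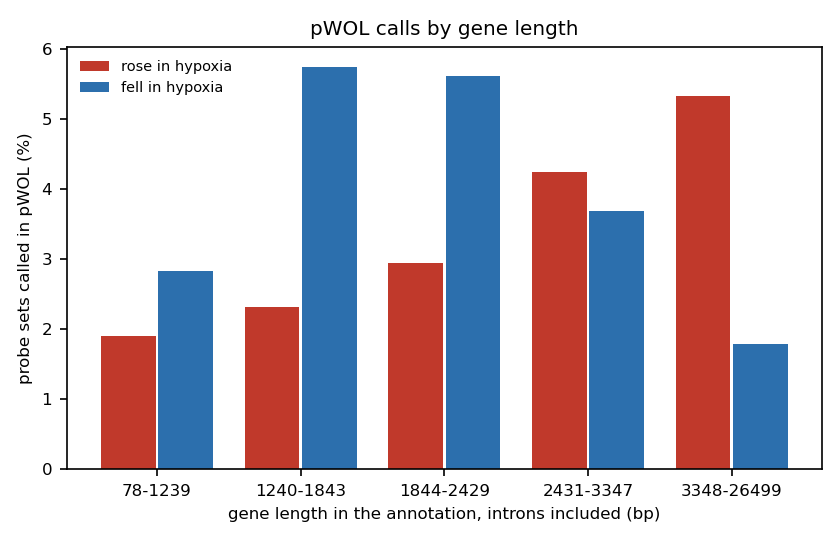
Share of probe sets called in pWOL (percent, vertical axis, from 0) in 5 classes of gene length with near-equal numbers, red for rises and blue for falls in hypoxia. The share that rose is 1.90% in the shortest class and 5.32% in the longest; the share that fell is 5.74% in the second class and 1.79% in the longest.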

How the data were processed

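The 4 pWOL arrays, 2 of hypoxia and 2 of control, were read from a table of 20 arrays. Per the submitters' processing notes the deposited values were made with RMA (affy); they range from 3.35 to 14.88 and were taken as log2 signals that the authors had background-corrected and normalized. No version or genome build is stated in the labels. After 64 control probe sets were left out, 22746 were fitted with limma 3.58.1 (R 4.3.3) as 10 group means over all 20 arrays, with 10 residual degrees of freedom, so all groups share 1 estimate of spread. P-values were adjusted by Benjamini-Hochberg over all probe sets and called at 0.05. The fit was tested on simulated data.

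The members and lists were chosen with earlier results of these data known. Named genes are the 15 largest called, non-overlapping differences in each direction among probe sets with 1 gene, and the list members with the largest differences or a defining role; the families read after earlier results are said to be so. Genes with several probe sets are read from the brightest. Of 22746 probe sets, 13513 had 1 gene in the platform annotation, 503 several and 8730 none; 13436 matched the RefSeq table (TAIR10.1), used for names and length. Where a gene has no symbol there, its locus code is given and its list rests on general knowledge. Group membership came from the sample titles. The labels do not say whether same-numbered arrays belong together, and the main fit did not pair them. Alternatives were the replicate block, the compared arrays alone, leaving out the dimmest 25%, median centring, quantile normalization, trended robust moderation and leaving out each array. Promoter motifs were not analysed here.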

Additional observations from a re-analysis of the deposited data

Results flagged for a closer look

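For 7 named genes the hypoxia response of pWOL differed from that of p35S by the test of the difference itself (limma, adjusted over all probe sets), in the comparison that was added after the data were seen. Values are the pWOL difference minus the p35S difference in log2 units. SETH6 differed by -4.16 ± 0.65 (SE; adjusted p = 0.041), with -3.52 in pWOL and 0.64 in p35S. AT3G07230 differed by -2.82 ± 0.44, with -2.57 in pWOL and 0.24 in p35S, and GSTF4 by -2.16 ± 0.35, with -1.38 in pWOL and 0.78 in p35S. In AT2G17850 (-2.81 ± 0.48) and AT1G19530 (-2.72 ± 0.48) of the low-oxygen core both lines rose, by 2.40 and 3.64 in pWOL against 5.21 and 6.36 in p35S. The folding genes AT3G18190 and ATERDJ3B differed by 2.37 ± 0.40 and 1.85 ± 0.33, with 1.93 and 1.39 in pWOL against -0.44 and -0.47 in p35S. None of the 7 passed with the replicate block or from the compared arrays alone. AT1G19530 also missed the threshold with median centring and quantile normalization (adjusted p = 0.051 and 0.057), and ATERDJ3B with quantile normalization and trended robust moderation (0.057 and 0.072). Of the 8 fits that left out an array, each of the 7 passed in 1, that without p35S hypoxia replicate 1. With 2 arrays a group, no array was tested for standing apart from its group.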

How the results depend on the processing

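The pWOL hypoxia count of 1937 lay between 1892 and 2494 with the replicate block (1892), the compared arrays alone, without the dimmest 25%, with median centring, quantile normalization and trended robust moderation. Median centring shifted the median difference of all probe sets to 0.05 and the share of rises to 56.9%, against 49.0%. Leaving out each pWOL array gave 788 to 871. Of 126 named calls none changed direction in any of these fits, while 66 held in each of the 4 fits without a pWOL array and 27 held in 0 of them. The compared arrays alone ended 5 named calls, centring 5, quantile normalization 4, the replicate block 4, trended robust moderation 3 and the filter 2. Against pSHR the count of 0 became 0 to 54 on leaving out each array. Against the mean of the other lines it became 0 to 20, and 1 with trended robust moderation. Against p35S the 36 became 0 with the replicate block, 0 from the compared arrays alone, and 0 to 156 on leaving out each array (156 on dropping p35S hypoxia replicate 1, 0 on dropping any other p35S array, 1 to 7 on dropping a pWOL array). Of its calls 15 were more positive and 21 more negative in pWOL, and with centring 18 and 16. For pWOL minus p35S in air the 2840 became 1214 to 1452. Fewer samples are in each fit that leaves out an array; the causes of the other changes were not tested. The deviations of same-numbered pWOL arrays correlated at -0.16, the labels do not pair them, and no crossed pairing was run.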
